A study of Mus musculus with 12 samples.

Results

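The NF-kB pathway was followed through 10 of its core genes in the hypothalamus of male C57BL/6 mice. They are the NF-kB subunit genes Nfkb1, Nfkb2, Rela and Relb, the inhibitor gene Nfkbia, the kinase genes Ikbkb and Ikbkg, the receptor gene Tlr4 and the adaptor genes Myd88 and Traf6. The genes were chosen by name, as a pathway that curcumin has been proposed to act on, and each matched 1 of the 78334 Ensembl IDs in the count table. All 10 passed the filter on low counts, as did 25562 IDs in all. No gene of the 10 passed the test (edgeR's quasi-likelihood test, Benjamini-Hochberg adjusted p under 0.05) in any of the 6 comparisons between the groups. Of all genes tested, only 0 to 0.0900% passed it in a comparison.

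Poly-A RNA of the hypothalamus, a brain region that controls feeding and energy use, was sequenced in 12 libraries of 4 groups. Curcumin-treated mice (n = 3) had been injected on postnatal day 2 with streptozotocin (70 mg/kg), which kills the beta cells of the pancreas, were fed a high-fat diet (60% of energy from fat) for 8 weeks from 3 weeks of age, and received curcumin (50 mg/kg) by gavage for 28 days. Mice given aged garlic extract (200 mg/kg, n = 2) had the same injection, diet and length of gavage. Diabetes mice (n = 4) had the injection and the diet and received the vehicle alone. Control mice (n = 3) ate standard chow and received the vehicle, and an injection is not given for them, so a comparison with control cannot separate the toxin from the diet. The age at death is not given, and the start of treatment is stated as week 7 of the diet in one place and after 11 weeks in another.

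NF-kB is a family of transcription factors that act as dimers, of which the pairing of p50, made from Nfkb1, with the Rela protein is the most common. In resting cells the inhibitor IkBa, the product of Nfkbia, holds the dimers in the cytoplasm. Toll-like receptor 4, which senses bacterial lipopolysaccharide, signals through the adaptor Myd88 and the ubiquitin ligase Traf6 to the IkB kinase complex, where Ikbkb encodes a catalytic subunit and Ikbkg the regulatory subunit. The kinase marks IkBa for destruction and the dimers enter the nucleus, where Nfkbia and Nfkb2 are themselves among the genes they switch on. In the mouse hypothalamus the pathway has been linked to high-fat feeding and to the loss of insulin and leptin responses. These steps run through changes to proteins, which counts of RNA do not measure.

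The 250 bases before the transcription start are printed for Nfkbia and Nfkb2, as genes that NF-kB is known to switch on, and for Rela as a subunit gene without the motif searched. The sequences are those of RefSeq on GRCm38.p6, read along the gene's strand, at chr12:55492648-55492897 (minus strand) for Nfkbia, chr19:46304487-46304736 (plus strand) for Nfkb2 and chr19:5637291-5637540 (plus strand) for Rela. Capitals mark matches to GGNNNTTCC on either strand (GGAANNNCC on the other), a loose form of the kB site that NF-kB dimers bind, and overlapping matches run together.
Nfkbia: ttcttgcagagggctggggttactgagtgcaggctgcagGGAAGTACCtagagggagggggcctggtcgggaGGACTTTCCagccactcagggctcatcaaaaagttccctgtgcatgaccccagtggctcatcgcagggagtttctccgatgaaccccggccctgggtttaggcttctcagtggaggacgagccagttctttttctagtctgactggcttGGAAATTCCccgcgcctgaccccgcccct
Nfkb2: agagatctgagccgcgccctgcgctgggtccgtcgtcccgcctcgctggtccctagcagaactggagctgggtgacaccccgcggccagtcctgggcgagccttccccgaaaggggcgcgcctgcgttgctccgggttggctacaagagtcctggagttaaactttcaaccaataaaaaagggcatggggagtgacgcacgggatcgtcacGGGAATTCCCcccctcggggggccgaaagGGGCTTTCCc
Rela: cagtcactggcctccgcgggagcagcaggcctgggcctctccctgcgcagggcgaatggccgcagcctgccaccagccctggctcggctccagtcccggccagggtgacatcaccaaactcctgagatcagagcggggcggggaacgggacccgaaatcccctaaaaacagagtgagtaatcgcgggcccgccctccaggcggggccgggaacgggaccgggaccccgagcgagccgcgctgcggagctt
The table of promoters matched 6 of the 10 genes, with 11 windows of 300 bases that run from 250 before to 50 after a start. The motif stood in 5 of these windows, of Nfkb2, Nfkbia and Myd88, and in 0 of those of Rela, Ikbkg and Traf6. Each printed window of Nfkbia and Nfkb2 held 3 matches, of which the 2 at the Nfkb2 palindrome overlap, and that of Rela held 0. Some windows of Nfkb2 overlap and share a match, so windows of a gene are not separate observations. By gene, 3 of the 6 held the loose motif in a window. Over all windows searched, 18.5% held it, and 20.7% of all genes with a window did. A match is a description of the letters and was not tested as a binding site.

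Library totals ran from 12950017 to 30271706 counts, and levels are given as CPM, counts scaled to a common library size after TMM normalization. Whether every library stands for its own animal is not stated, and p-values therefore measure the spread between these libraries only, which may be technical. Diabetes replicate 4 held pituitary transcripts, with 866 summed CPM over 7 pituitary markers against at most 15.3 in every other library, and had the highest summed level of 15 microglial markers (576, against 320 to 413 elsewhere) and of 5 red blood cell genes (1755, against 87.5 to 504). Curcumin replicate 2 had 49.7 summed CPM over 13 markers of the hypothalamus, with Hcrt and Fezf1 at 0, against 580 to 4527 elsewhere. Control replicate 3 had 1163 summed CPM over 8 astrocyte markers, against 2817 to 4273 elsewhere. At equal depth 20917 to 29126 genes were detected in curcumin, 33125 to 34719 in garlic, 20133 to 22515 in diabetes and 25766 to 33157 in control libraries, so that the diabetes and control ranges did not overlap.

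Together the 10 genes held 0.0149 to 0.0216% of a library's counts, and their summed level was 192 to 206 CPM in curcumin, 179 to 210 in garlic, 159 to 197 in diabetes and 176 to 198 in control libraries, so that the groups overlapped. Levels of different genes are compared per kb of the longest annotated transcript. On that scale Nfkbia had the highest mean over all libraries, at 15.2 ± 5.49 CPM per kb (SD over 12 libraries). Ikbkb (11.5 ± 1.99) and Rela (11.1 ± 2.48) lay within each other's spread and within that of Nfkbia. The order differed between groups: Nfkbia was at 20.2 ± 4.47 in diabetes and 10.7 ± 4.85 in control. In control its mean was below those of Ikbkb (12.4 ± 0.445) and Rela (11.1 ± 1.68). Nfkb1 (6.59 ± 1.70) and Ikbkg (4.87 ± 1.05) came next. Myd88 (2.96 ± 1.11), Relb (2.84 ± 1.38) and Traf6 (2.23 ± 0.949) did not differ beyond their spread, Nfkb2 stood at 0.738 ± 0.598 and Tlr4 at 0.130 ± 0.228. The place of Ikbkb and Nfkb1 depends on the length used: over all annotated exons, 19078 and 12061 bases in place of 3977 and 4117, their means were 2.40 and 2.25 CPM per kb, below Ikbkg at 4.20.

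**Figure D1:**
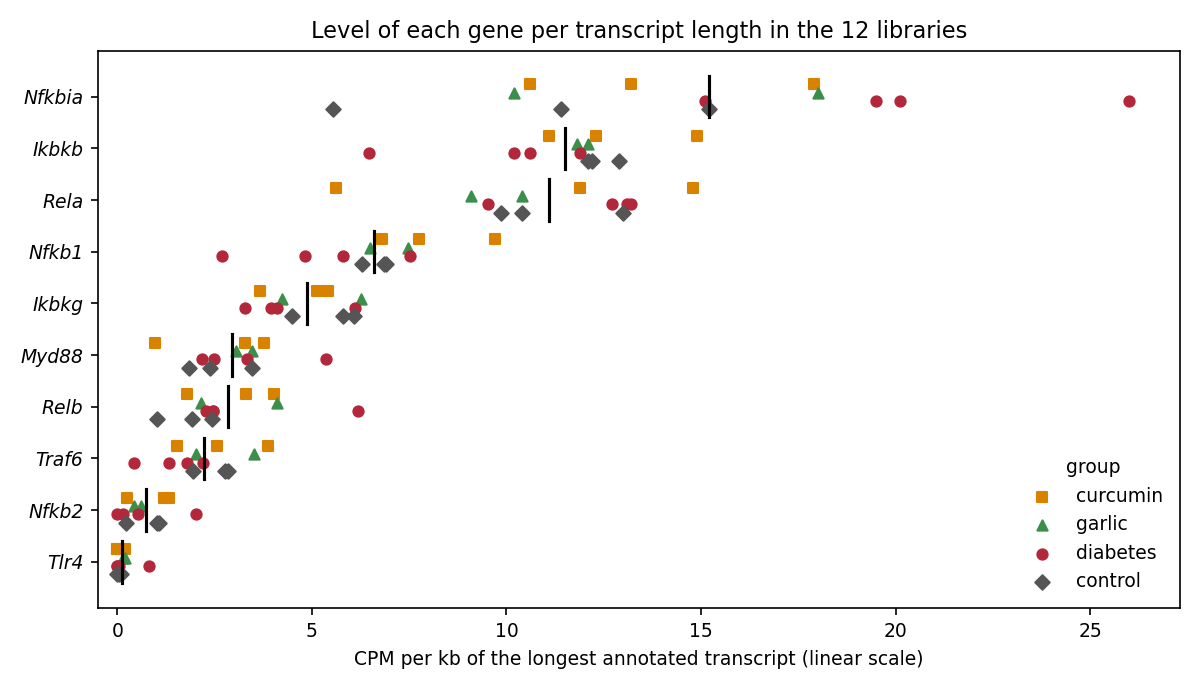
Level of each of the 10 genes in each library, in CPM per kb of transcript on a linear scale, with squares for curcumin, triangles for garlic, circles for diabetes, diamonds for control and a black line at the mean of the 12 libraries. Nfkbia has the highest mean, 15.2, and its libraries run from 5.54 to 26.0, while Tlr4 stays at or under 0.811 in every library.

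Diabetes was compared with control to ask whether the injection and diet together were accompanied by other levels of the pathway's RNA. None of the 10 genes was called, beside 0.0156% of all genes tested. At an unadjusted p under 0.05 there was 1, Nfkbia, against 12.3% of all genes. DESeq2 and limma-voom called 0 of the 10 as well, beside 475 genes higher and 53 lower by DESeq2 and 724 and 453 by limma-voom. These are counts among the 25562 genes of the edgeR fit. DESeq2 gave no adjusted p for Nfkb2, Relb, Tlr4 and Myd88, and so could not call them. The median log2 fold change of the 10 was -0.02, beside -0.07 over all genes tested, with 5 above 0 and 5 below. Nfkbia, Relb, Rela, Myd88 and Tlr4 had changes above 0, and both kinase genes, Traf6, Nfkb1 and Nfkb2 had changes below 0.

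Nfkbia, the inhibitor, gave the smallest p of the 10. It stood at 23.9, 31.7, 30.7 and 41.0 CPM in diabetes replicates 1 to 4, against 18, 23.9 and 8.75 CPM in control replicates 1 to 3. The groups met at 23.9, and every other diabetes library was above every control library. The log2 change was 0.91 ± 0.34 (SE), with a 95% interval of 0.20 to 1.63 and an unadjusted p of 0.0154, but the adjusted p was 0.323. The lowest control library, replicate 3, is the one low in astrocyte markers, and without it the log2 change was 0.60 (unadjusted p = 0.0961). Without diabetes replicate 4, the highest, it was 0.77. Summed marker levels also differed between these groups without overlap: neuronal markers were at 3352 to 3543 CPM in diabetes and 4221 to 4534 CPM in control, red blood cell genes at 264 to 1755 CPM in diabetes and 87.5 to 196 CPM in control, and hypothalamic markers at 2164 to 4527 CPM in diabetes and 1481 to 2068 CPM in control. The part of cell makeup in the difference of Nfkbia, or of any other of the 10 genes, was not tested, and in such bulk tissue fewer cells of a type cannot be told apart from less RNA per cell.

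The kinase genes had lower means in diabetes. Ikbkb, the catalytic subunit, was at 40.4, 47.4, 25.8 and 42.2 CPM in diabetes replicates 1 to 4, against 48.0, 48.4 and 51.2 CPM in control. It was the only gene of the 10 whose groups did not overlap here, and 8.94% of all genes did not overlap in that direction. The log2 change was -0.34 ± 0.23 (adjusted p = 0.647), and the lowest library, diabetes replicate 3, set much of it, since without that library the change was -0.18. With the correction for transcript length it was -0.10. Ikbkg, the regulatory subunit, was at 27.6, 28.7, 42.7 and 22.9 CPM in diabetes and 40.5, 42.6 and 31.4 CPM in control, with a log2 change of -0.33 ± 0.26 (adjusted p = 0.749) that was 0.10 after a correction for transcript length. In diabetes replicate 3 the Ikbkg level was the highest and the Ikbkb level the lowest of the 4, so the per-kb ratio of Ikbkb to Ikbkg was 1.06 there and 1.93 to 3.24 in the other 11 libraries.

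Upstream of the kinases, Traf6, the ubiquitin ligase, was at 13.6, 8.28, 2.70 and 11.0 CPM in diabetes replicates 1 to 4, against 17.6, 17.1 and 12.0 CPM in control. The groups overlapped at 12.0 to 13.6, and the log2 change was -0.80 ± 0.45 (adjusted p = 0.502). Diabetes replicate 3 was again lowest, and without it the change was -0.51. With the length correction it was -0.44. Myd88, the adaptor that receives the signal from most Toll-like receptors, was at 10.5, 6.53, 4.26 and 4.86 CPM in diabetes and 4.69, 3.59 and 6.80 CPM in control, with a log2 change of 0.38 ± 0.56 (adjusted p = 0.936) that was 0.05 without diabetes replicate 1.

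Tlr4 itself was close to the limit of detection. It had 6, 0, 0 and 64 counts in diabetes replicates 1 to 4 (0.212, 0, 0 and 3.31 CPM) and 10, 4 and 0 counts in control (0.422, 0.221 and 0 CPM). In the libraries at 0, the count allows up to 0.136 to 0.261 CPM, which covers counting error only. The log2 change of 2.01 ± 2.32 (adjusted p = 0.885) rested on diabetes replicate 4, the library with pituitary, blood and the highest microglial levels, and without it the change was -1.43. Ly96, whose protein pairs with the receptor to bind lipopolysaccharide, was likewise at 0, 0, 0 and 41 counts in diabetes replicates 1 to 4, against 13, 7 and 36 in control. The part of the other tissues in these Tlr4 counts was not tested.

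Of the subunits of the classical dimer, Rela was at 25.9, 35.5, 35.9 and 34.4 CPM in diabetes and 26.8, 28.3 and 35.3 CPM in control, almost the same range. Its log2 change of 0.13 ± 0.29 (adjusted p = 0.973) had a 95% interval of -0.48 to 0.73. Nfkb1, the precursor of p50, was at 11.1, 30.9, 19.8 and 23.9 CPM in diabetes, against 28.4, 28.2 and 25.8 CPM in control. Control libraries lay close together while diabetes libraries spread to either side, and the log2 change was -0.36 ± 0.29 (adjusted p = 0.751), or -0.14 without diabetes replicate 1 and -0.10 with the length correction. As a description, the per-kb ratio of Rela to Nfkb1 was 3.53, 1.74, 2.75 and 2.19 in diabetes replicates 1 to 4 and 1.43, 1.52 and 2.07 in control.

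The alternative pathway uses Relb and Nfkb2, the precursor of p52. Relb was at 5.44, 5.07, 13.7 and 5.43 CPM in diabetes, against 5.36, 2.27 and 4.26 CPM in control. Replicate 3 stood apart from the other diabetes libraries, which lay close to control replicate 1, and the log2 change of 0.89 ± 0.56 (adjusted p = 0.580) was 0.42 without it. Nfkb2 varied widely and was at 0.601, 2.08, 0 and 7.80 CPM in diabetes and 4.14, 3.87 and 0.861 CPM in control. The groups overlapped throughout, and the log2 change was -0.17 ± 1.13 (adjusted p = 0.995), with an interval from -2.53 to 2.20 that covers large changes either way.

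**Figure D2:**
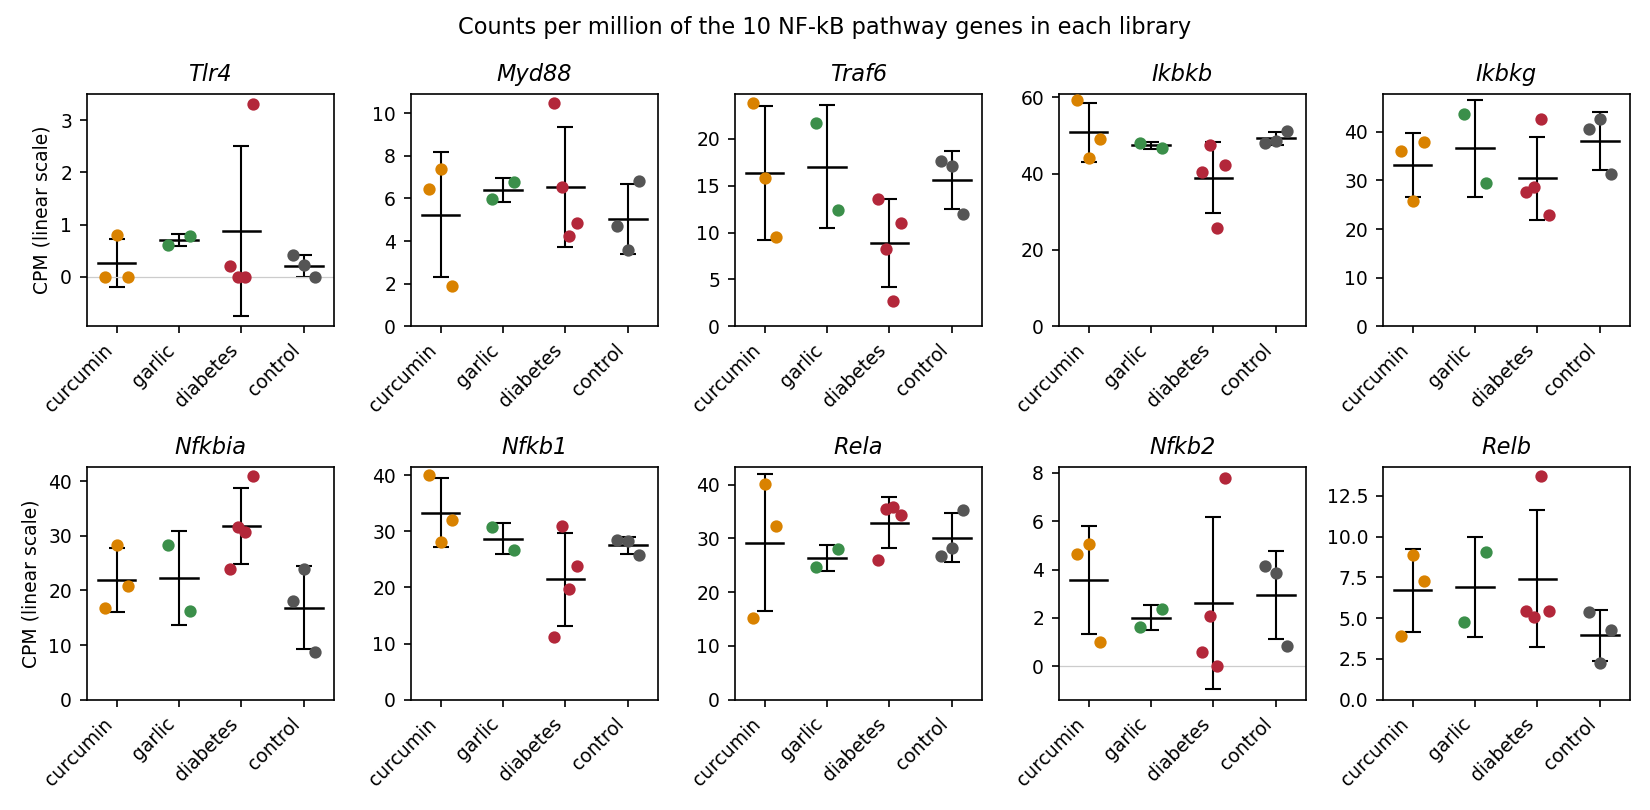
CPM of each gene (linear scale, 1 panel per gene with its own axis) in curcumin, garlic, diabetes and control libraries, each point being 1 library, the long line the mean and the bar 1 SD. Diabetes points of Nfkbia run from 23.9 to 41.0 and control points from 8.75 to 23.9, and 1 diabetes library carries the high values of Tlr4 (3.31) and Nfkb2 (7.80) and another that of Relb (13.7).

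Curcumin was compared with untreated diabetes to ask whether the compound, described as an inhibitor of NF-kB activation, went with other RNA levels of its core genes. By edgeR 0 of the 10 were called, beside 0.0900% of all genes tested. DESeq2 and limma-voom called 0 of the 10, beside 389 genes higher and 670 lower by DESeq2 and 8 and 115 by limma-voom. At an unadjusted p under 0.05 there was 1, Nfkb1, against 17.2% of all genes. The median log2 change of the 10 was -0.01, beside 0.07 over all genes, with 5 above 0 and 5 below. This comparison and the previous one share the diabetes libraries, so opposite signs between them are not independent observations.

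Nfkb1 was at 40.0, 28.0 and 32.0 CPM in curcumin replicates 1 to 3, against 11.1, 30.9, 19.8 and 23.9 CPM in diabetes. Diabetes replicate 2 lay inside the curcumin range and the other three diabetes libraries below it. The log2 change was 0.64 ± 0.29, with a 95% interval of 0.02 to 1.25, an unadjusted p of 0.0426 and an adjusted p of 0.275. Leaving out 1 library moved the change between 0.42, without diabetes replicate 1, and 0.87, without diabetes replicate 2, and the length correction gave 0.41.

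Nfkbia was at 16.8, 28.3 and 20.8 CPM in curcumin, against 23.9, 31.7, 30.7 and 41.0 CPM in diabetes. Curcumin replicates 1 and 3 were below every diabetes library and replicate 2 was among them. The log2 change of -0.54 ± 0.34 (adjusted p = 0.455) had an interval of -1.24 to 0.17, and with the length correction the change was -0.25. Rela was at 15.2, 40.1 and 32.3 CPM in curcumin and 32.9 ± 4.76 CPM in diabetes (SD, n = 4). Its lowest and its highest library of all 12 were both in the curcumin group, and without curcumin replicate 1 the log2 change of -0.17 ± 0.29 (adjusted p = 0.844) was 0.14.

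Among the kinases and adaptors, Traf6 was at 23.8, 15.8 and 9.51 CPM in curcumin, against 13.6, 8.28, 2.70 and 11.0 CPM in diabetes, with a log2 change of 0.87 ± 0.45 (adjusted p = 0.325). The highest of the 12 Traf6 levels was in curcumin replicate 1, and without that library the change was 0.50, beside 0.48 with the length correction. Ikbkb was at 59.3, 44.0 and 49.0 CPM in curcumin and 38.9 ± 9.27 CPM in diabetes (log2 change 0.38 ± 0.23, adjusted p = 0.429), which was 0.18 with the length correction. Ikbkg was at 33.2 ± 6.54 CPM in curcumin and 30.5 ± 8.55 CPM in diabetes (log2 change 0.12 ± 0.27). Its 95% interval, before adjustment over genes, was -0.43 to 0.68, or 0.741 to 1.60 fold. The sign turned with the length correction, to -0.34. Myd88 was at 6.44, 7.40 and 1.88 CPM in curcumin and 6.54 ± 2.81 CPM in diabetes (log2 change -0.32 ± 0.56, adjusted p = 0.851).

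Genes of the alternative pathway and the receptor were too variable for a firm statement. Relb was at 3.93, 8.89 and 7.28 CPM in curcumin and 5.44, 5.07, 13.7 and 5.43 CPM in diabetes (log2 change -0.14 ± 0.54, adjusted p = 0.946). Nfkb2 was at 4.64, 5.06 and 0.991 CPM in curcumin and 0.601, 2.08, 0 and 7.80 CPM in diabetes (log2 change 0.44 ± 1.12, adjusted p = 0.908), and without diabetes replicate 4 the change was 1.97. Tlr4 had 0, 16 and 0 counts in curcumin, against 6, 0, 0 and 64 in diabetes (log2 change -1.71 ± 2.30, adjusted p = 0.789). That sign turned without diabetes replicate 4, to 1.72.

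Garlic was compared with untreated diabetes in the same way, with 2 garlic libraries. By edgeR 0 of the 10 were called, as were 0% of all genes tested. At an unadjusted p under 0.05 there were 0 of the 10, against 10.9% of all genes. DESeq2 and limma-voom called 0 of the 10, beside 34 genes higher and 398 lower by DESeq2 and 70 and 359 by limma-voom. DESeq2 gave no adjusted p for Nfkb2, Relb, Tlr4, Myd88 and Traf6, and so could not call them. The median log2 change of the 10 was -0.07, beside 0.07 over all genes. Traf6 had the smallest p, at 21.7 and 12.4 CPM in garlic, against 13.6, 8.28, 2.70 and 11.0 CPM in diabetes (log2 change 0.93 ± 0.49, adjusted p = 0.534), and garlic replicate 2 lay below the highest diabetes library. The change was 0.46 without garlic replicate 1, and 0.52 with the length correction.

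Nfkbia was at 28.4 and 16.2 CPM in garlic, against 23.9 to 41.0 CPM in diabetes (log2 change -0.51 ± 0.39, adjusted p = 0.781), so that 1 garlic library was among the diabetes libraries and the other below them. The change was -0.16 without garlic replicate 2 and -0.99 without garlic replicate 1. Nfkb1 was at 30.7 and 26.7 CPM in garlic (log2 change 0.42 ± 0.33, adjusted p = 0.802, or 0.14 with the length correction) and Rela at 24.7 and 28.1 CPM (-0.32 ± 0.33, adjusted p = 0.927). For the kinases, Ikbkb was at 48.1 and 46.8 CPM and Ikbkg at 43.7 and 29.5 CPM in garlic, with log2 changes of 0.28 ± 0.26 and 0.27 ± 0.30. With the length correction the change of Ikbkb was 0.02. Relb, Myd88, Nfkb2 and Tlr4 had log2 changes from -0.39 to -0.04, each with an adjusted p of 1. Tlr4 had 14 and 15 counts in the 2 garlic libraries, and 10, 4 and 0 in control. These 2 groups did not overlap, and 6.65% of all genes were likewise higher without overlap in garlic against control.

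**Figure D3:**
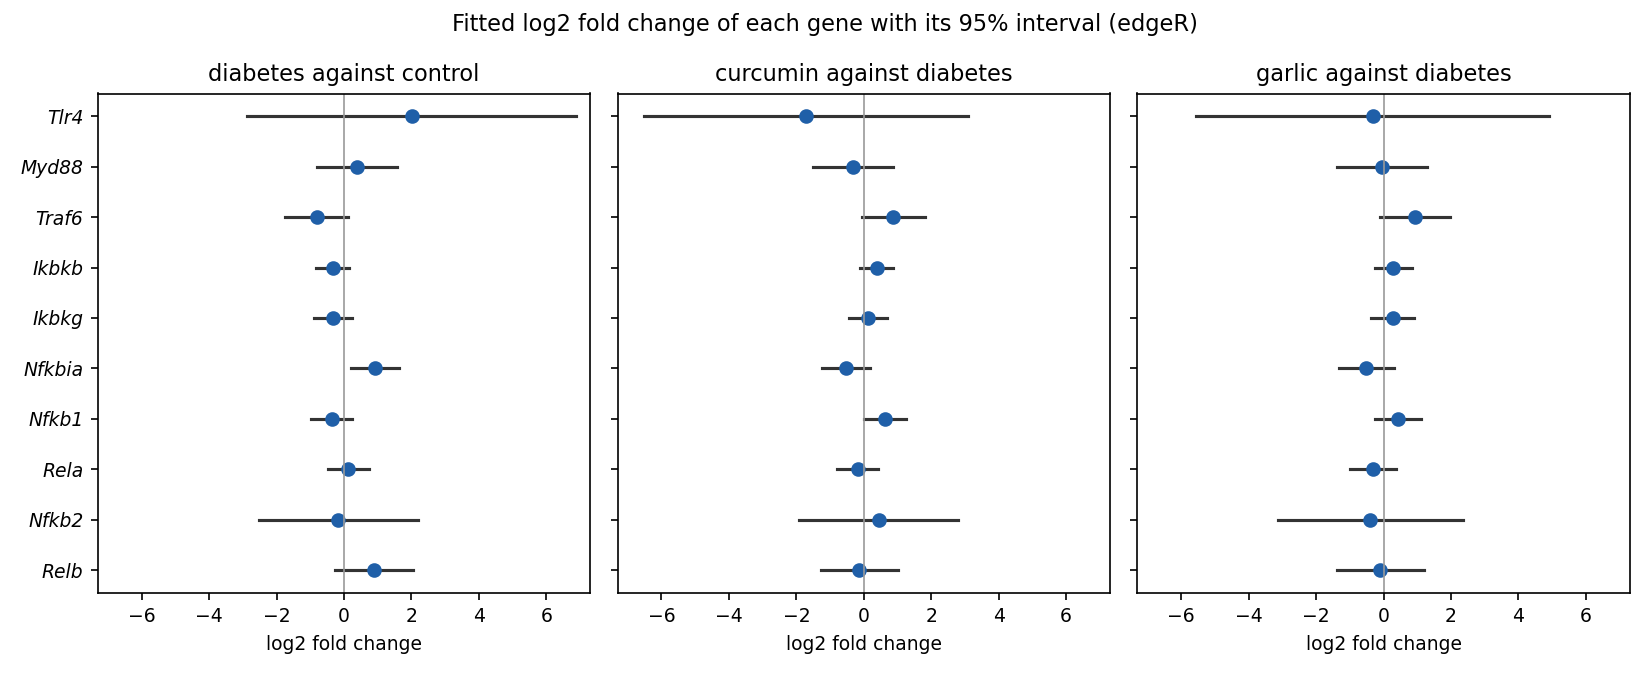
Fitted log2 fold change of each gene (point) with its 95% interval (line) for diabetes against control, curcumin against diabetes and garlic against diabetes, on 1 common axis. The intervals of Nfkbia in diabetes (0.20 to 1.63) and of Nfkb1 with curcumin (0.02 to 1.25) lie above 0 before adjustment over all genes, and those of Tlr4 reach from -6.53 to 6.88 over the 3 panels.

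The treated groups were also set against control and against each other. For curcumin against control, garlic against control and curcumin against garlic, edgeR called 0 of the 10 and 0% of all genes tested, and 0 of the 10 had an unadjusted p under 0.05, against 2.34, 0.110 and 1.60% of all genes. DESeq2 and limma-voom called 0 of the 10 in each. Of all genes, DESeq2 called 5 lower in curcumin against control, 0 in garlic against control and 7 lower in curcumin against garlic, and limma-voom called 0 in each. Nfkbia averaged 22.0 ± 5.86 CPM with curcumin, 22.3 ± 8.65 CPM with garlic and 16.9 ± 7.65 CPM in control, with log2 changes of 0.38 ± 0.36 for curcumin and 0.40 ± 0.40 for garlic against control. Relb averaged 6.70 ± 2.53 CPM with curcumin and 6.90 ± 3.05 CPM with garlic, and 3.96 ± 1.57 CPM in control, with log2 changes of 0.75 ± 0.58 for curcumin and 0.80 ± 0.64 for garlic against control. Between curcumin and garlic the log2 changes of the 10 ran from -1.39, for Tlr4, to 0.83, for Nfkb2.

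Precision differed widely between the 10 genes. In diabetes against control the 95% interval of Rela allowed a fold from 0.718 to 1.66, that of Ikbkb 0.567 to 1.11 and that of Ikbkg 0.543 to 1.17. Those of Nfkb2 and Tlr4 ran from 0.173 to 4.59 and from 0.137 to 118, so these data do not bound them usefully.

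Genes with the most similar pattern to each of the 10 were found by the smallest root mean square difference of log2 CPM after centring, over the 12 libraries and 13770 other genes with a symbol and a mean of at least 1 CPM. For Nfkbia they were Clu, which encodes the secreted chaperone clusterin, Cpq and Pon2, with differences of 0.251, 0.287 and 0.304 log2 units, where Nfkbia itself varied by 0.561 about its mean. Clu was at 1183 ± 133 CPM in diabetes and 781 ± 374 CPM in control, with its lowest level of 366 in the control group. For Nfkb1 they were Capn7, a calpain protease, Zfp941 and Slc8a3 (0.112, 0.171 and 0.185), for Rela Mrps10, a mitochondrial ribosomal protein, Coq10a and Pak1ip1 (0.125, 0.139 and 0.142) and for Ikbkb Nrd1, Trim24 and Lpin1 (0.0956, 0.107 and 0.116). The nearest genes to Traf6 were Rb1, Cemip2 and Tubgcp4 (0.325, 0.328 and 0.336). For Tlr4 the closest gene, Aarsd1, still differed by 1.06, beside 1.64 for the variation of Tlr4 itself. The 12 libraries share groups and depth, so these are descriptions of the samples.

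The wider pathway was taken from 4 lists of 77 other genes, of which 70 passed the filter on low counts. No gene of these lists was called by edgeR in diabetes against control, curcumin against diabetes or garlic against diabetes. At an unadjusted p under 0.05 there were 10, 6 and 10 of the 70 in these comparisons, or 14.3, 8.57 and 14.3%, beside 12.3, 17.2 and 10.9% of all genes tested.

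Among 25 receptors and adaptors (24 tested), the median log2 change was -0.16 in diabetes against control, 0.33 in curcumin against diabetes and 0.04 in garlic against diabetes. Ticam1, the adaptor TRIF of the Myd88-independent route, was at 9.34 ± 2.44 CPM in diabetes and 4.26 ± 1.43 CPM in control, with groups that did not overlap (log2 change 1.13 ± 0.47, adjusted p = 0.355), as was so in that direction for 5.78% of all genes. It was at 5.76 ± 0.826 CPM with curcumin and 5.55 ± 0.267 CPM with garlic, again without overlap with diabetes (log2 changes -0.70 ± 0.46 and -0.75 ± 0.54, adjusted p = 0.485 and 0.742). Of all genes, 4.19% with curcumin and 7.52% with garlic were likewise lower than diabetes without overlap. Ticam2, which bridges Tlr4 to TRIF, had 0 counts in all 4 diabetes libraries and 9, 8 and 12 in control (adjusted p = 0.330). Of all genes, 8.94% were likewise lower in diabetes than in control without overlap. The pooled control level of Ticam2 was 11.6-fold above a floor of 3 counts over the diabetes group. That fold leaves out the counting error of control and the spread between libraries. Ticam2 was named for its small p and passed the filter on low counts through the other groups only. A high fold follows from that choice, and it is not an estimate of the size of an effect. Il1rap, the accessory chain of the interleukin-1 receptor, was at 11.8 ± 0.839 CPM in diabetes and 20.0 ± 8.11 CPM in control (log2 change -0.75 ± 0.33, adjusted p = 0.377), and at 23.3 ± 9.48 CPM with garlic (0.98 ± 0.37 against diabetes, adjusted p = 0.388).

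Among 20 kinases and ubiquitin enzymes, all tested, the medians were -0.12, -0.03 and 0.05 in the same order of comparisons. Chuk, the other catalytic subunit of the IkB kinase, was at 32.2, 32.8, 25.2 and 39.5 CPM in diabetes, against 45.2, 37.4 and 55.6 CPM in control (log2 change -0.50 ± 0.23, adjusted p = 0.396). It was at 56.2 and 50.3 CPM with garlic, above every diabetes library (0.71 ± 0.26, adjusted p = 0.376), as were 13.2% of all genes, and at 35.1, 31.6 and 44.1 CPM with curcumin, within or near the diabetes range. Otulin, a deubiquitinase that removes linear ubiquitin chains and so restrains the pathway, was at 23.4 ± 9.08 CPM in diabetes and 12.4 ± 1.73 CPM in control (0.92 ± 0.33, adjusted p = 0.310). Tab2, which links ubiquitin chains to the kinase Tak1, was at 62.9 ± 6.10 CPM with garlic and 41.0 ± 9.41 CPM in diabetes (0.61 ± 0.26, adjusted p = 0.414).

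Among 10 other subunits and inhibitors, the medians were 0.27, -0.12 and -0.16. Nkrf, a DNA-binding repressor of NF-kB target genes, had the smallest p of any gene of the 4 lists. It was at 37.0, 40.6 and 34.6 CPM with curcumin, 38.3 and 30.2 CPM with garlic, 22.8, 18.4, 25.7 and 23.7 CPM in diabetes and 34.6, 34.9 and 33.3 CPM in control. Every diabetes library was below every curcumin, garlic and control library. Of all genes, 5.43% were likewise higher without overlap in curcumin against diabetes and 13.2% in garlic against diabetes, and 8.94% were lower in diabetes against control. These comparisons share the diabetes libraries, and the share of genes that did so in all of them was not counted. The log2 change of Nkrf was 0.72 ± 0.22 for curcumin against diabetes (unadjusted p = 0.00456, adjusted p = 0.143), 0.60 ± 0.25 for garlic against diabetes (adjusted p = 0.413) and -0.60 ± 0.22 for diabetes against control (adjusted p = 0.324). Nfkbib, the inhibitor IkBb, and Commd1, which promotes the removal of Rela, had log2 changes of 0.47 ± 0.35 and 0.45 ± 0.30 in diabetes against control (adjusted p = 0.706 and 0.631).

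Of 22 target genes, 16 were tested, with medians of 0.02, 0.01 and -0.38. The inflammatory cytokine genes were almost without counts: over all 12 libraries Tnf had 2 counts, Il1b 10, Il6 12, Cxcl1 5, Cxcl2 0 and Ccl2 35, and none of the 6 passed the filter. Nos2, the inducible nitric oxide synthase, had 0 counts in all 4 diabetes libraries and 8, 14 and 19 in control (adjusted p = 0.296). Of all genes, 8.94% were likewise lower in diabetes than in control without overlap. The pooled control level of Nos2 was 16.5-fold above the floor of 3 counts over the diabetes group, with the same limits as for Ticam2. Nos2 had 0, 16 and 35 counts with curcumin and 16 and 11 with garlic. Nlrp3, the inflammasome sensor, had 24, 21 and 0 counts with curcumin, 27 and 32 with garlic, 0 in every diabetes library and 19, 0 and 18 in control (adjusted p = 0.322 for diabetes against control). Its pooled control level was 14.9-fold above that floor, again with those limits, though control replicate 2 was at 0 as well. With 0 counts in diabetes, Ticam2, Nos2 and Nlrp3 passed the filter on low counts through the other groups only. Fewer genes were detected in every diabetes library than in every garlic and control library, and curcumin replicates 1 and 3 were within the diabetes range. In curcumin replicate 1 there were 0 Nos2, 24 Nlrp3 and 0 Ticam2 counts, and in curcumin replicate 3 there were 35, 0 and 24. The part of gene detection in the low counts was not tested. Traf1, a target that feeds back on receptor signalling, was at 0.0473, 1.44 and 2.58 CPM with curcumin, against 4.49, 8.62, 0.783 and 12.9 CPM in diabetes (log2 change -2.31 ± 0.98, adjusted p = 0.241).

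**Figure D4:**
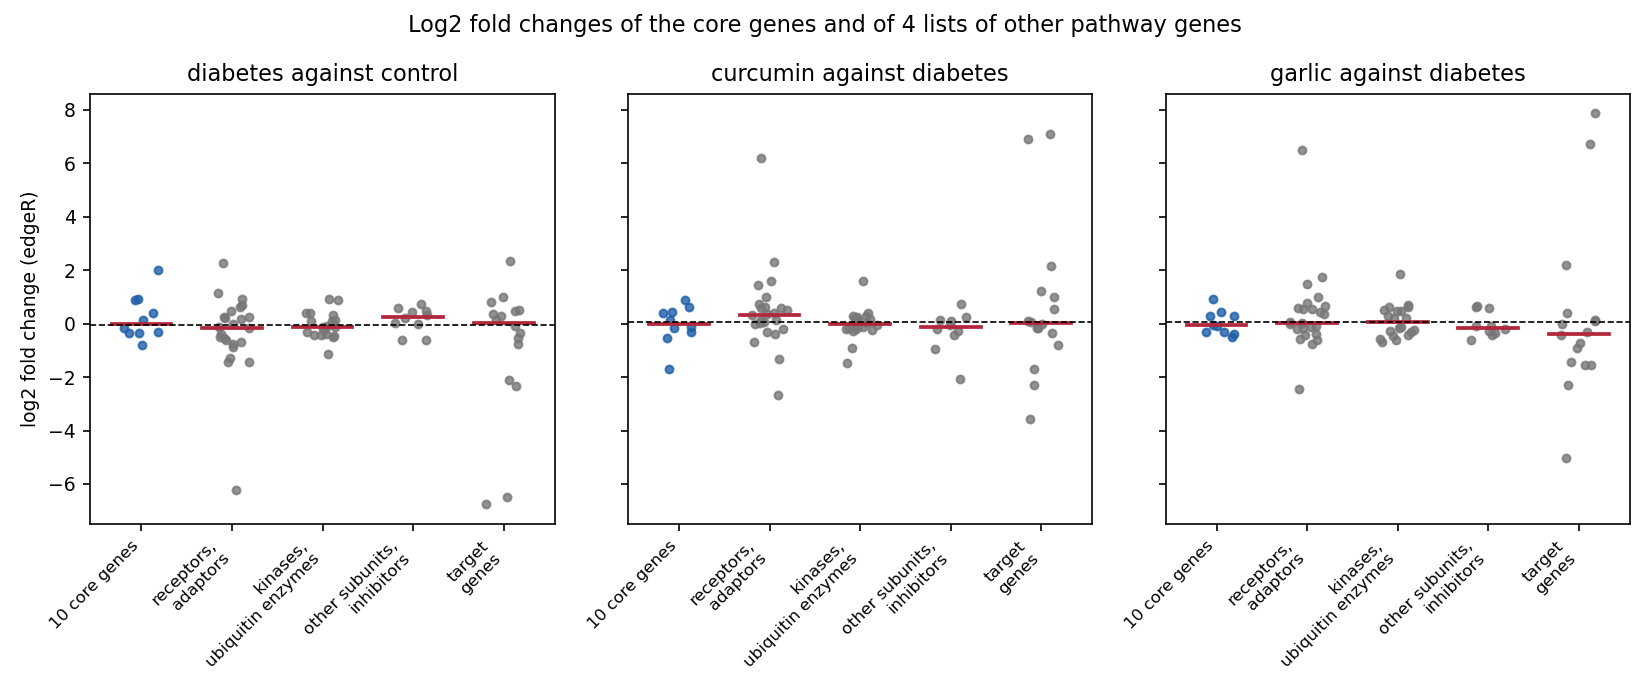
Log2 fold change of each tested gene of the 10 core genes (blue) and of 4 lists of other pathway genes (grey), with the list's median (red line) and the median of all genes tested (dashed line), in 3 comparisons. List medians stay between -0.38 and 0.33, and the points beyond 6 in either direction are Ticam2, Nos2 and Nlrp3, whose fitted changes depend on the prior count because diabetes libraries are at 0.

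Microglia are the immune cells of the brain, in which the pathway is best known. The 15 microglial markers, all tested, summed to 347 to 395 CPM in curcumin, 338 to 413 in garlic, 354 to 576 in diabetes and 320 to 391 in control libraries. In the 6 comparisons 0 of them were called, beside 0 to 0.0900% of all genes tested. At an unadjusted p under 0.05 in edgeR, 3 were higher and 2 lower in diabetes against control. In curcumin against diabetes 1 was higher and 5 lower, and in garlic against diabetes 2 were higher and 3 lower. Of all genes, 12.3, 17.2 and 10.9% had such a p. A sum does not show markers that moved in opposite directions. The 13 hypothalamic markers summed to 49.7 to 1522 CPM with curcumin and 2164 to 4527 CPM in diabetes, without overlap. All 13 had log2 changes below 0 in curcumin against diabetes, with a median of -1.23. The 8 endothelial markers summed to 122 to 424 CPM with curcumin and 71.2 to 199 CPM in diabetes, and the 9 neuronal markers to 3816 to 5121 CPM with curcumin and 3352 to 3543 CPM in diabetes. The 6 oligodendrocyte markers summed to 4118 to 11432 CPM in curcumin, 6606 to 7092 in garlic, 4868 to 6229 in diabetes and 4908 to 7423 in control libraries. The highest curcumin sums of endothelial, neuronal and oligodendrocyte markers were all in curcumin replicate 2, the library lowest in hypothalamic markers. The part of such tissue differences in the comparisons of the 10 genes with curcumin was not tested. The 7 markers of thalamus and habenula summed to 307 to 733 CPM in curcumin, 376 to 521 in garlic, 530 to 837 in diabetes and 519 to 702 in control libraries.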

How the data were processed

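Raw read counts per Ensembl gene ID were deposited by the authors as 1 table of 12 libraries. FastQC, featureCounts and GRCm39 are named, per the submitters' processing notes, and the labels' protocols give a stranded poly-A kit and paired reads of 150 bases. The aligner, annotation release, strand setting and treatment of multi-mapped reads were not stated in the sources used here. Symbols and transcript lengths came from GENCODE M21 on GRCm38, which matched 65.7% of IDs carrying 97.8% of the counts, and no coordinates were joined to the counts.

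All 12 libraries were fitted in 1 edgeR 4.0.16 model (R 4.3.3, filterByExpr by group, TMM, glmQLFit and glmQLFTest), with 6 contrasts, Benjamini-Hochberg adjustment over 25562 genes and a threshold of 0.05. The biological coefficient of variation was 0.808. DESeq2 1.42.0, limma 3.58.1 (voom), other scalings, filters and covariates, and each library left out were alternatives. The smallest chi-square per degree of freedom between libraries of a group was 20.1, so none looked deposited as 2. Replicate numbers are names only: deviations of same-numbered libraries correlated at -0.18 to 0.25 over 15 pairs. Genes named were all 10 members, the 3 of smallest p in each of 4 lists, the 3 most similar patterns to a member, and Ly96 and the untested cytokine genes, added after their values were seen. The members and lists were chosen with earlier results of these data known. The 95% intervals of log2 changes come from the spread between libraries in the edgeR fit, and floors of 3 counts cover counting error only. The result of 1 marker list is not reported here.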

Additional observations from a re-analysis of the deposited data

Results flagged for a closer look

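Values were checked for a library far from the others of its group in the diabetes group, the only one with 4 libraries, over the 10 core genes and 12 named pathway genes, where chance flags about 1 group in 20. In 3 genes the gap between the extreme library and its nearest neighbour took up more of the group's range than Dixon's 95% critical value. Rela was low in diabetes replicate 1, at 25.9 CPM, with the other three at 34.4 to 35.9 (0.849 of the range). Relb was high in diabetes replicate 3, at 13.7 CPM (0.957), the shallowest library, in which Ikbkb and Traf6 were lowest. Tlr4 was high in diabetes replicate 4, at 3.31 CPM (0.936), the library with pituitary transcripts and the highest microglial and blood levels.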

How the results depend on the processing

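Under 23 alternative settings 0 of the 10 core genes were called in any of 102 refits over 6 comparisons. Several refits called hardly any gene at all, so a count of 0 says little there. Diabetes against control called 0 of all genes once control replicate 1, 2 or 3 or diabetes replicate 1, 2 or 3 was dropped. It called 1 gene without diabetes replicate 4. The most calls, 754 genes up and 1221 down, came for curcumin against diabetes when curcumin replicate 2 was dropped. Some of the 10 had no adjusted p from DESeq2, as given above, and could not be called by it. Of 525 refits of 30 log2 changes in the 3 comparisons with diabetes as a group, 487 kept their sign and 38 reversed it, with 0 past the threshold. The cause of the reversals was not tested. Replicate numbers do not pair these libraries, and with a replicate block the reversed changes were -1.39 for Tlr4 in diabetes against control, 1.62 for Tlr4 in curcumin against diabetes, and 1.05 for Nfkb2, 0.05 for Relb and 2.52 for Tlr4 in garlic against diabetes. The medians of the 10 genes under the replicate block were -0.32, 0.22 and 0.24 in these comparisons, in place of -0.02, -0.01 and -0.07. With limma-voom, Tlr4 was at -0.43 in diabetes against control, Relb at 0.04 in curcumin against diabetes, and Nfkb2 at 1.40, Tlr4 at 1.97 and Myd88 at 0.03 in garlic against diabetes, with medians of -0.40 in diabetes against control and 0.31 in garlic against diabetes. Without the 2 libraries that stand apart, Tlr4 was at -1.41 in diabetes against control, and Nfkb2 at 1.17 and Tlr4 at 3.13 in garlic against diabetes, with medians of -0.31 and 0.27. With the length correction, in diabetes against control Nfkb2 was at 0.09, Ikbkg at 0.10 and the median at 0.18, and Ikbkg was at -0.34 in curcumin against diabetes and -0.21 in garlic against diabetes. With a covariate for detected genes, Nfkb2 was at 0.39 in diabetes against control, and the medians were 0.55 there and -0.81 in garlic against diabetes. Myd88 in garlic against diabetes was at 0.01 with no low-count filter and 0.03 in a fit of the 2 groups alone, and in such a fit of diabetes against control the median was -0.20.

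Leaving out 1 library at a time, the changes in diabetes against control ran from -1.70 to 0.24 for Nfkb2 and from -1.43 to 2.94 for Tlr4. In curcumin against diabetes they ran from -0.43 to 0.14 for Rela, -0.35 to 0.33 for Relb, -7.13 to 1.72 for Tlr4 and -0.62 to 0.08 for Myd88. In garlic against diabetes they ran from -0.80 to 1.14 for Nfkb2, -0.64 to 0.37 for Relb, -0.06 to 0.53 for Ikbkg, -0.73 to 3.11 for Tlr4 and -0.19 to 0.29 for Myd88. The medians ran from -0.30 (without diabetes replicate 4) to 0.16 (without diabetes replicate 3), from -0.11 to 0.22 and from -0.15 to 0.24, the upper ends of the last 2 again without diabetes replicate 4. Tlr4 gave no value under the stricter low-count filter, nor in the 2-group fits of diabetes against control and curcumin against diabetes. Depth limits Tlr4, which had at most 16 counts in every library but diabetes replicate 4.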
